A study of Mus musculus with 11 samples.

Results

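Motile cilium genes of the mouse hippocampus are described here across 11 libraries: every gene of the deposited table whose symbol is Dnah, Cfap, Rsph or Tekt followed by a digit, together with Foxj1 and Ak7. These were 58 of the 22377 genes listed, namely 33 Cfap, 10 Dnah, 8 Rsph and 5 Tekt genes beside Foxj1 and Ak7. The rule used names only and no measured value, but it was set with earlier results of these data known. Total RNA of whole hippocampus of C57BL/6N male mice was used for CAGE (cap analysis of gene expression), a method that reads the capped 5′ ends of transcripts. The cortical stroke was a photothrombosis (PT) of the left parietal lobe, made with rose bengal (35 mg/kg) and LED light (565 nm) shone for 30 min on a circle 3.5 mm wide. The anti-seizure drug levetiracetam (LEV, 5 mg/mL) was given in drinking water. The groups were PT 7 d with LEV, PT 7 d, PT 1 m with LEV, PT 1 m and PT 2 m after LEV withdrawal, each with 1 library of the infarcted and 1 of the non-infarcted hemisphere, and 1 library of naive mice without PT. The stroke lay in the cortex, so the infarcted side means the hippocampus of the hemisphere with the infarct. The series text names mice of 8 to 10 and of 65 to 85 weeks, and the labels do not give the age for a library, the number of animals in it, or whether the sides share animals. In the series text, LEV starts 1 month after PT, which leaves unstated when mice of the PT 7 d LEV group drank it. That text also gives a withdrawal of 1 week, where the label of the PT 2 m libraries gives 2 weeks.

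A motile cilium beats because dynein arms slide the microtubule doublets of its axoneme, and radial spokes and a central pair of microtubules shape that sliding into a wave. In the brain, ependymal cells that line the ventricles carry tufts of such cilia and move cerebrospinal fluid. The choroid plexus, the epithelium that secretes this fluid, lies in the same ventricles next to the hippocampus. Foxj1, a forkhead transcription factor, is the master regulator of motile cilia and works with factors of the RFX family, which bind the X-box of cilium gene promoters. Many members also have roles in sperm tails, and some Cfap genes act in the primary cilium that neurons and astrocytes carry.

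The promoters of 4 members whose levels are described below are shown because they carry letters that RFX or forkhead factors are known to bind. The windows are RefSeq promoters of GRCm38.p6, 300 bases around the gene's start on the strand of the gene, and positions are counted from that start. Capitals mark the RFX core motif GTTGCC on either strand, the full RFX X-box that holds it on both strands, or the forkhead motif TGTTTAC.
Cfap298 (chr16:90934800-90935099, minus strand): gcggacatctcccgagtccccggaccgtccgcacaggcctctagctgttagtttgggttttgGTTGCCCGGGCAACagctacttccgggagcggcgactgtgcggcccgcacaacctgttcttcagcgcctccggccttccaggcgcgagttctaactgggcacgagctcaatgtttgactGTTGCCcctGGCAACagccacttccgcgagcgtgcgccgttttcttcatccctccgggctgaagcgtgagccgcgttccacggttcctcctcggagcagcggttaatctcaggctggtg
Cfap44 (chr16:44394549-44394848, plus strand): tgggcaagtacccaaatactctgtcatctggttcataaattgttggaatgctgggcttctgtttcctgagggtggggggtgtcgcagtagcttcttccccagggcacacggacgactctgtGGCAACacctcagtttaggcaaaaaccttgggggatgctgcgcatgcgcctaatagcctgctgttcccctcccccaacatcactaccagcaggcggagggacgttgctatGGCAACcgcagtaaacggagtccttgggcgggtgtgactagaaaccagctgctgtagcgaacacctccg
Cfap161 (chr7:83794790-83795089, minus strand): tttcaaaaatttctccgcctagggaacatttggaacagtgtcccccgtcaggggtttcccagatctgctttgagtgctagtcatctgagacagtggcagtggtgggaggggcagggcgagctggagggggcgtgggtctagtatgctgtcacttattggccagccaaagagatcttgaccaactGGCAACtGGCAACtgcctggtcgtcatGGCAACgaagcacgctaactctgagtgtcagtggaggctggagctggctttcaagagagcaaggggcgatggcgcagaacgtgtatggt
Ak7 (chr12:105705732-105706031, plus strand): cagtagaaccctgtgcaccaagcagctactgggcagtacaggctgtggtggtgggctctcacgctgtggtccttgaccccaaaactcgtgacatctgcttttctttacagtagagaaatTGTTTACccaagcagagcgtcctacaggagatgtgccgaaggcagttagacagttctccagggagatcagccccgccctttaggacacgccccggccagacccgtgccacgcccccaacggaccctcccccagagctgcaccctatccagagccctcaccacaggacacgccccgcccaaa

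Cfap298 was the only member with a full X-box, which began 188 bases before the start and held both of the first core motifs, and a second pair of core motifs began 69 and 60 bases before it. Cfap161 had 3 core motifs within 66 bases of the start. Cfap44 had 1 core motif 129 and 1 core motif 19 bases before the start. Ak7 had a forkhead motif 131 bases before the start and no RFX core motif in this window. The promoter table held 46 of the 58 members and 27025 genes in all. At least 1 GTTGCC, on either strand, stood in the windows of 18 of these 46 members (39.1%), against 14.1% of all genes. The X-box was in 1 member (2.17%), against 0.529% of all genes. TGTTTAC was in 4 members (8.7%: Ak7, Cfap20, Cfap43 and Tekt3), against 4.05% of all genes. A match of letters is a description of the sequence and not a binding site. All 4 members whose promoters are shown fell at 1 m in the time comparison described below, as did Cfap74, which had RFX core motifs. Cfap36, Cfap52, Cfap69, Cfap126, Cfap206 and Dnah6 fell too, and their windows held none of these motifs. Of the 15 tested members with an RFX core motif, only Cfap44, Cfap74, Cfap161 and Cfap298 fell. The others did not pass there, namely Cfap20, Cfap46, Cfap97d2, Cfap100, Cfap300, Dnah7a, Dnah7b, Dnah10, Rsph3b, Tekt1 and Tekt4. Cfap20 also held a forkhead motif. A link between motifs and levels was not tested.

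The libraries held 13382623 to 22377376 reads, of which 93.0% to 96.1% fell in listed genes. Values are CPM, the reads of a gene scaled to the reads of its library, and with 0 reads a level of up to 3 reads, or 0.134 to 0.224 CPM by library, is allowed. Such floors and the Poisson intervals in the plots cover counting error only. Each group had 1 library, so tests compared sides over the 5 PT conditions, or times and LEV over 4 condition means. Their p-values rest on the residual spread of these fits, drawn toward that of all genes, and not on replicates of a group. For time and LEV the fit had 1 residual degree of freedom against 21.6 taken from all genes, so its error came mostly from other genes. An SD over the 4 libraries of a time mixes sides and LEV and is not the error of that fit. In bulk tissue, fewer cells of a type and less RNA per cell cannot be told apart. The hippocampal neuron genes Prox1 and Neurod6 stood at 46.1 to 68.02 CPM and 96.4 to 171 CPM. PT 1 m on the infarcted side and PT 1 m LEV on the non-infarcted side stood apart in Ttr, the main secreted protein of the choroid plexus, at 36.2 and 80.7 CPM, against 1211 to 4652 CPM in the other 9 libraries.

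Of the 58 members, 46 had a mean of at least 1 CPM over the 11 libraries and were tested: 27 Cfap, 7 Dnah, 7 Rsph and 3 Tekt genes, Foxj1 and Ak7. The 12 others were Cfap53, Cfap58, Cfap73, Cfap97d1, Cfap99, Cfap157, Dnah3, Dnah7c, Dnah8, Rsph14, Tekt2 and Tekt3, with 0 to 1.47 CPM, of which 5 had no read in at least 1 library. The member with the highest mean was Cfap36, a ciliary protein that binds the small GTPase ARL3, at 168 CPM, and the lowest was Tekt2, a tektin filament protein of the doublets, at 0.0357 CPM. CAGE CPM is not divided by transcript length, and members are therefore compared with themselves across libraries rather than with each other. The radial spoke stalk genes Rsph3a (33.7 to 40.8 CPM) and Rsph3b (25.9 to 31.8 CPM) varied least, with a highest library only 1.21 and 1.23 times the lowest. Cfap20, an inner junction protein of the doublet, ranged from 64.9 to 81.3 CPM, a ratio of 1.25. The widest ranges among tested members were those of Cfap52, another doublet protein, with a ratio of 7.47, of the spoke head gene Rsph6a with 4.47 and of its paralog Rsph4a with 3.96, all genes at or below 3.98 CPM in every library. Dnah7a, Dnah7b and Dnah7c are near-identical copies, as are Rsph3a and Rsph3b, and how reads were split between copies is not stated in the sources used here. Rsph10b overlaps Pms2 and Cfap43 overlaps Itprip on the same strand, among other such overlaps, so their values are uncertain in a like way. Others overlap a gene on the opposite strand, such as Rsph9 with Mrps18a and Cfap97 with Snx25. Each listed gene has a strand, but whether reads were counted by strand is not stated.

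The clearest pattern was in time. Levels at 1 m were below those at 7 d for a set of axonemal genes, among them Rsph1, a radial spoke head protein, and Cfap126, the doublet protein also called Flattop. The ratio of mean CPM at 1 m to that at 7 d was 0.47995 for Rsph1 and 0.426 for Cfap126. Fitted log2 differences are of CPM + 1 and understate the change of low genes. Of the 46 members tested, 14 fell and 1 rose at 1 m against 7 d at an adjusted p under 0.05 (limma with Benjamini-Hochberg adjustment over 16057 genes). Over all genes tested, 10.1% fell and 5.71% rose, 15.8% in all. The median log2 difference of CPM + 1 was -0.27 over the members and -0.06 over all genes, and 40 of the 46 were below 0. The 14 that fell were Foxj1, Ak7, Dnah6, Rsph1, Rsph10b, Cfap36, Cfap44, Cfap52, Cfap69, Cfap74, Cfap126, Cfap161, Cfap206 and Cfap298, and Rsph6a rose. This count rests on a fit with 1 residual degree of freedom and moved with the scaling. With TMM-scaled CPM 2 members fell and 0 rose, namely Cfap126 and Rsph1, while over all genes 163 rose and 147 fell with TMM, against 917 and 1620 without it. On leaving out each of the 8 libraries in turn, 5 of the 15 (Rsph1, Cfap36, Cfap44, Cfap126 and Cfap206) passed each time, and the other 10 lost the call without at least 1 library.

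**Figure D1:**
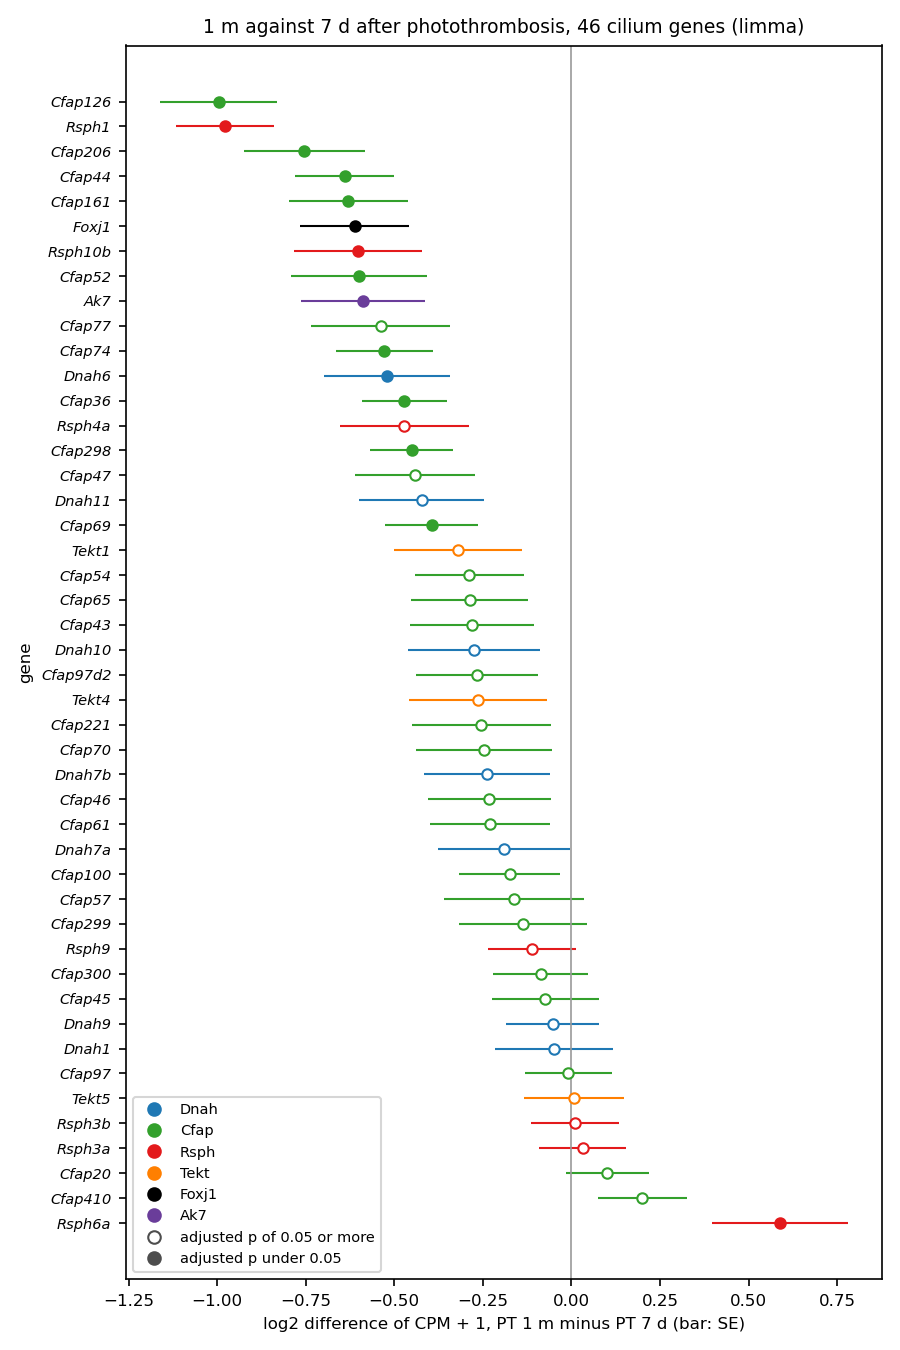
log2 difference of CPM + 1 between PT 1 m and PT 7 d for the 46 tested members, with its SE, colour by gene family and filled points for an adjusted p under 0.05 (limma). Cfap126 and Rsph1 lie lowest, at log2 differences of -0.995 and -0.98, Tekt5, Rsph3a and Rsph3b lie near 0, and Rsph6a lies highest at a log2 difference of 0.59.

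Foxj1 (chr11:116330704-116335399, minus strand) stood at 9.85 CPM in the naive library. With LEV at 7 d it had 11.03 CPM (infarcted side) and 9.55 CPM (non-infarcted side), and without LEV 12.1 CPM (infarcted) and 9.97 CPM (non-infarcted). The 1 m values were 10.1 CPM (infarcted) and 5.72 CPM (non-infarcted) with LEV and 5.903 CPM (infarcted) and 5.45 CPM (non-infarcted) without, and those after withdrawal at 2 m were 9.37 CPM (infarcted) and 8.36 CPM (non-infarcted). The naive and 7 d libraries were high, and 3 of the 4 libraries at 1 m were low, while the infarcted side of PT 1 m LEV lay within the range of 7 d. Foxj1 averaged 6.802 ± 2.23 CPM over the 1 m libraries and 10.7 ± 1.13 CPM over the 7 d libraries (SD, n = 4 each), and it fell at 1 m (log2 difference -0.61, SE 0.15, adjusted p 0.00905, limma). Without the 2 libraries low in Ttr the log2 difference was -0.45 and no longer passed (adjusted p 0.127, limma), and without PT 1 m on the infarcted side alone, or PT 1 m LEV on the non-infarcted side alone, adjusted p was 0.0511 and 0.106 (limma).

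Ak7 (chr12:105705976-105782447, plus strand), an adenylate kinase of the axoneme, stood at 2.499 CPM in the naive library. The 7 d libraries with LEV had 3.02 CPM (infarcted) and 2.54 CPM (non-infarcted), and those without had 3.31 CPM (infarcted) and 2.93 CPM (non-infarcted). Libraries of 1 m had 1.38 CPM (infarcted) and 1.56 CPM (non-infarcted) with LEV and 2.17 CPM (infarcted) and 1.43 CPM (non-infarcted) without, and withdrawal at 2 m left 4.25 CPM (infarcted) and 3.38 CPM (non-infarcted). All 4 libraries at 1 m lay below all 4 at 7 d and both at 2 m. Its means were 1.64 ± 0.361 CPM over the 1 m libraries and 2.95 ± 0.318 CPM over the 7 d libraries (SD, n = 4 each; log2 difference -0.59, SE 0.18, adjusted p 0.02504, limma). It no longer passed without PT 7 d LEV on the non-infarcted side, either side of PT 1 m, or PT 1 m LEV on the infarcted side (adjusted p 0.0515 to 0.0937, limma).

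Of the dynein heavy chains, the motor subunits of the arms, 7 were tested, all 7 lay below 0 at 1 m against 7 d, and 1 passed. This was Dnah6, an inner arm chain, with 1.05 to 2.01 CPM at 1 m and 2.305 to 3.16 CPM at 7 d (log2 difference -0.52, SE 0.18, adjusted p 0.0489, limma). It no longer passed without both libraries low in Ttr (adjusted p 0.358, limma), and of the 8 libraries left out in turn it kept the call only without the infarcted side of PT 7 d LEV, the non-infarcted side of PT 1 m or the infarcted side of PT 1 m LEV (lost calls at adjusted p 0.07005 to 0.225, limma). Of the outer arm chains, Dnah11 had 1.72 to 3.27 CPM at 1 m and 3.05 to 3.64 CPM at 7 d and did not pass (log2 difference -0.42, SE 0.18, adjusted p 0.108, limma). Dnah9 was level, at 15.4 to 20.7 CPM over all 11 libraries, with a log2 difference of -0.05 (SE 0.13) between 1 m and 7 d. The inner arm chains Dnah1 and Dnah10 differed by -0.05 and -0.28, and the copies Dnah7a and Dnah7b by -0.19 and -0.24.

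The radial spoke genes held both the smallest p of all members and the only rise. Rsph1 (chr17:31255019-31277383, minus strand) stood at 13.4 CPM in the naive library. With LEV at 7 d it had 17.5 CPM (infarcted side) and 16.7 CPM (non-infarcted side), and without LEV 19.8 CPM (infarcted) and 18.2 CPM (non-infarcted). The 1 m values were 9.13 CPM (infarcted) and 8.27 CPM (non-infarcted) with LEV and 8.44 CPM (infarcted) and 8.82 CPM (non-infarcted) without, and those after withdrawal at 2 m were 24.3 CPM (infarcted) and 17.8 CPM (non-infarcted). Every library at 1 m was below every other library of the study, and the 4 libraries at 1 m lay close together. Rsph1 averaged 8.67 ± 0.385 CPM over the 1 m libraries and 18.1 ± 1.29 CPM over the 7 d libraries (SD, n = 4 each; log2 difference -0.98, SE 0.14, adjusted p 4.47e-05, limma). Rsph10b, another spoke head protein, had 1.21 to 2.39 CPM at 1 m and 2.29 to 3.899 CPM at 7 d, groups that overlap (log2 difference -0.60, SE 0.18, adjusted p 0.0257, limma). It lost the call without both libraries low in Ttr (adjusted p 0.258, limma), without either 1 of them, and without PT 7 d or PT 7 d LEV on the non-infarcted side (adjusted p 0.0549 to 0.129, limma).

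Rsph6a, the spoke head paralog known from mouse sperm, stood at 0.9997 CPM in the naive library. The 7 d libraries with LEV had 0.988 CPM (infarcted) and 1.13 CPM (non-infarcted), and those without had 0.571 CPM (infarcted) and 0.436 CPM (non-infarcted). Libraries of 1 m had 1.95 CPM (infarcted) and 1.65 CPM (non-infarcted) with LEV and 1.12 CPM (infarcted) and 1.94 CPM (non-infarcted) without, and withdrawal at 2 m left 0.4905 CPM (infarcted) and 0.831 CPM (non-infarcted). The 4 libraries at 1 m were above both at 2 m and 3 of them above all at 7 d. It rose at 1 m (log2 difference 0.59, SE 0.19, adjusted p 0.0391, limma), on few reads (7 to 37 per library over these 8), and it no longer passed when any 1 of 6 of the 8 libraries was left out (all but the infarcted side of PT 7 d and the non-infarcted side of PT 1 m LEV; adjusted p 0.0514 to 0.1405, limma). Its paralog Rsph4a had 1.004 to 2.37 CPM at 1 m and 2.43 to 3.14 CPM at 7 d and did not pass (log2 difference -0.47, SE 0.18, adjusted p 0.0808, limma). The spoke genes Rsph9, Rsph3a and Rsph3b differed by -0.11, 0.03 and 0.01, each with an SE of 0.12.

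**Figure D2:**
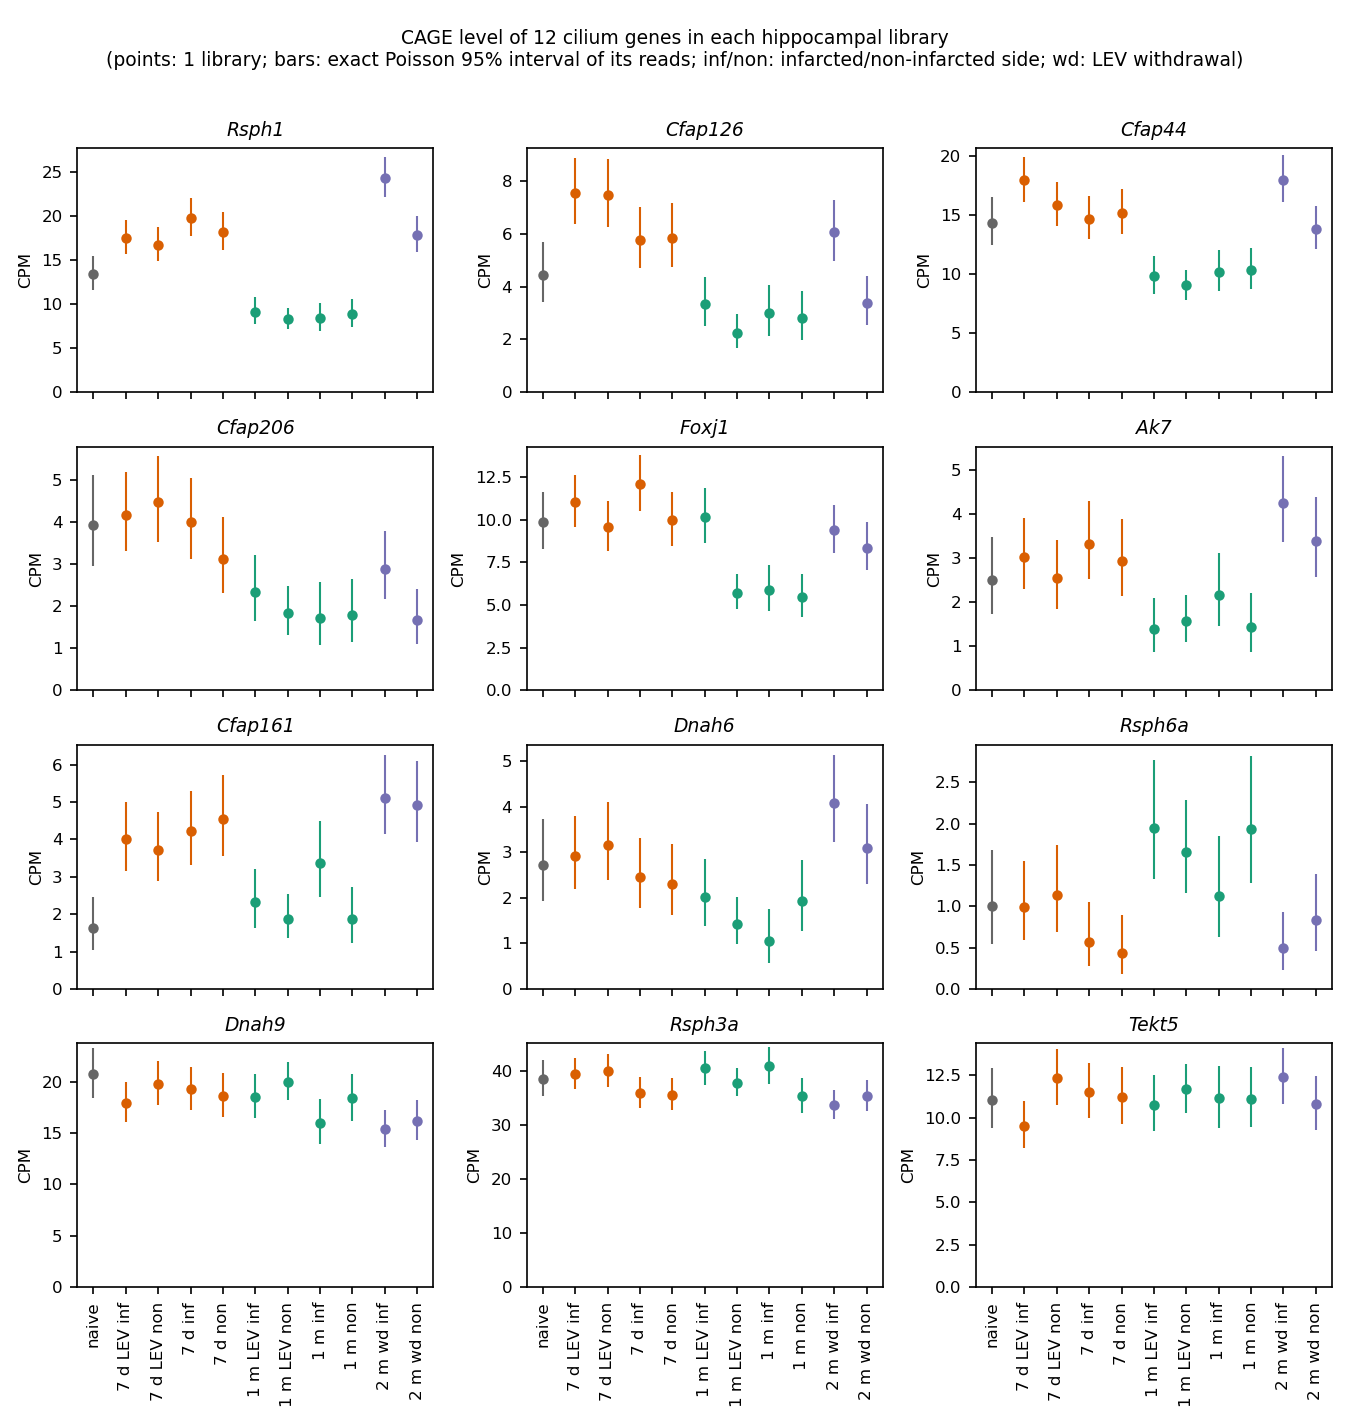
CPM of 12 members in each of the 11 libraries (1 point a library, with the exact Poisson interval of its reads), ordered by naive, 7 d, 1 m and 2 m and, within a time, with LEV left of none and the infarcted left of the non-infarcted side. Rsph1, Cfap126, Cfap44 and Ak7 are lowest or near lowest at 1 m, while Dnah9, Rsph3a and Tekt5 stay level.

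The Cfap genes, named for proteins found in cilia and flagella, serve different structures. Of 27 tested, 9 fell at 1 m against 7 d and 0 rose. Among the proteins that line the inside of the doublets, Cfap126 (chr1:171113918-171126967, plus strand) stood at 4.43 CPM in the naive library. With LEV at 7 d it had 7.54 CPM (infarcted side) and 7.46 CPM (non-infarcted side), and without LEV 5.77 CPM (infarcted) and 5.86 CPM (non-infarcted). The 1 m values were 3.34 CPM (infarcted) and 2.23 CPM (non-infarcted) with LEV and 2.99 CPM (infarcted) and 2.798 CPM (non-infarcted) without, and those after withdrawal at 2 m were 6.05 CPM (infarcted) and 3.38 CPM (non-infarcted). All libraries at 1 m were below all others, including the non-infarcted side at 2 m, which was the next lowest. Its means were 2.84 ± 0.461 CPM over the 1 m libraries and 6.66 ± 0.976 CPM over the 7 d libraries (SD, n = 4 each; log2 difference -0.995, SE 0.17, adjusted p 0.000249, limma).

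Cfap161 (chr7:83774101-83794880, minus strand), a doublet protein too, stood at 1.64 CPM in the naive library. The 7 d libraries with LEV had 4.01 CPM (infarcted) and 3.73 CPM (non-infarcted), and those without had 4.23 CPM (infarcted) and 4.55 CPM (non-infarcted). Libraries of 1 m had 2.33 CPM (infarcted) and 1.88 CPM (non-infarcted) with LEV and 3.36 CPM (infarcted) and 1.87 CPM (non-infarcted) without, and withdrawal at 2 m left 5.12 CPM (infarcted) and 4.92 CPM (non-infarcted). The naive library was the lowest of the 11, and all 7 d and 2 m libraries were above all 1 m libraries. Cfap161 averaged 2.36 ± 0.703 CPM over the 1 m libraries and 4.13 ± 0.346 CPM over the 7 d libraries (SD, n = 4 each; log2 difference -0.63, SE 0.17, adjusted p 0.0133, limma), and it no longer passed without PT 7 d LEV or without PT 1 m on the non-infarcted side (adjusted p 0.0536 and 0.0928, limma). Cfap52 had 0.358 to 1.07 CPM at 1 m and 1.14 to 2.12 CPM at 7 d and fell as well (log2 difference -0.60, SE 0.19, adjusted p 0.0352, limma), a call kept only without the infarcted side of PT 7 d or of PT 1 m LEV among the 8 libraries left out in turn (lost at adjusted p 0.0569 to 0.164) and lost without both libraries low in Ttr (adjusted p 0.127, limma). The doublet proteins Cfap45, Cfap77 and Cfap20 did not pass, with log2 differences of -0.07, -0.54 and 0.10.

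Cfap206 (chr4:34688559-34730206, minus strand), which docks a radial spoke to the doublet, stood at 3.93 CPM in the naive library. With LEV at 7 d it had 4.16 CPM (infarcted side) and 4.46 CPM (non-infarcted side), and without LEV 3.9996 CPM (infarcted) and 3.11 CPM (non-infarcted). The 1 m values were 2.33 CPM (infarcted) and 1.83 CPM (non-infarcted) with LEV and 1.72 CPM (infarcted) and 1.79 CPM (non-infarcted) without, and those after withdrawal at 2 m were 2.89 CPM (infarcted) and 1.66 CPM (non-infarcted). All 4 libraries at 1 m were below all 4 at 7 d, but the non-infarcted side at 2 m was lower still, so the 2 m libraries span the range of 1 m. Cfap206 averaged 1.92 ± 0.278 CPM over the 1 m libraries and 3.93 ± 0.5798 CPM over the 7 d libraries (SD, n = 4 each; log2 difference -0.75, SE 0.17, adjusted p 0.00447, limma).

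Cfap44, which with Cfap43 tethers an inner dynein arm, had 9.03 to 10.3 CPM at 1 m and 14.7 to 17.9 CPM at 7 d, with 17.98 CPM on the infarcted side against 13.8 CPM on the non-infarcted side at 2 m and 14.4 CPM in naive. The groups at 1 m and 7 d did not overlap (log2 difference -0.64, SE 0.14, adjusted p 0.00355, limma). Its partner Cfap43 had 1.58 to 2.17 CPM at 1 m and 1.83 to 3.24 CPM at 7 d and did not pass (log2 difference -0.28, SE 0.18, adjusted p 0.301, limma). The promoter window of Cfap43 (chr19:47837312-47837611) held a forkhead motif, and that of Cfap44 shown above held RFX core motifs only. In the gene coordinates used here (chr19:47736857-47919287, minus strand), the Cfap43 window lies inside the gene and not at its start. A link of these motifs with the 2 results was not tested.

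Among central apparatus genes, Cfap74 had 9.63 to 13.3 CPM at 1 m and 15.2 to 18.1 CPM at 7 d and fell (log2 difference -0.53, SE 0.14, adjusted p 0.0113, limma). Cfap69 had 17.6 to 22.9 CPM at 1 m and 24.2 to 26.3 CPM at 7 d and fell too (log2 difference -0.39, SE 0.13, adjusted p 0.04304, limma). Without the infarcted side of PT 1 m, Cfap74 no longer passed (adjusted p 0.05901, limma), and Cfap69 no longer passed without any 1 of 5 libraries (PT 7 d or PT 1 m on the infarcted side, and PT 7 d LEV, PT 1 m or PT 1 m LEV on the non-infarcted side; adjusted p 0.0603 to 0.137, limma). Neither overlapped between the times. The others of this structure, Cfap46, Cfap47, Cfap54, Cfap65 and Cfap221, had log2 differences of -0.44 (Cfap47) to -0.23 (Cfap46), and none passed. The remaining Cfap genes tested (Cfap57, Cfap61, Cfap70, Cfap97, Cfap97d2, Cfap100 and Cfap299) differed by -0.27 to -0.01, and none of them passed.

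The dynein assembly factor Cfap298, whose promoter holds the X-box, had 62.3 to 67.8 CPM at 1 m and 86.4 to 96.5 CPM at 7 d, with 82.2 CPM on the infarcted side against 76.5 CPM on the non-infarcted side at 2 m and 64.9 CPM in naive. The naive library thus lay among those at 1 m. Cfap298 averaged 65.2 ± 2.74 CPM over the 1 m libraries and 89.5 ± 4.72 CPM over the 7 d libraries (SD, n = 4 each; log2 difference -0.45, SE 0.12, adjusted p 0.0115, limma), and without PT 7 d LEV on the non-infarcted side it no longer passed (adjusted p 0.0511, limma). For Cfap36 the naive library was just below 1 m, with 136 to 152 CPM at 1 m, 192 to 205 CPM at 7 d and 133 CPM in naive (log2 difference -0.47, SE 0.12, adjusted p 0.00981, limma). The other assembly factor, Cfap300, differed by -0.09 (SE 0.13).

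Cfap410, a ciliary base protein, was the 1 tested member with all libraries at 1 m (26.8 to 32.6 CPM) above all at 7 d (23.6 to 26.2 CPM), but its difference did not pass (log2 difference 0.20, SE 0.13, adjusted p 0.303, limma). Of the tektins, 0 of 3 passed. Tekt1 had 1.35 to 1.79 CPM at 1 m and 1.93 to 2.3998 CPM at 7 d, which did not overlap, and Tekt4 and Tekt5 differed by -0.26 and 0.01 on the log2 scale.

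Over the 46 members, 15 (32.6%) had all 4 libraries at 1 m below all 4 at 7 d, where 19.1% of all genes tested did. Below both 7 d and 2 m were 11 members (23.9%), against 13.6% of all genes. The naive library was above all 4 at 1 m for 22 members (47.8%), against 21.9% of all genes. The median time difference was below 0 in all 4 combinations of side and drug, over the members and over all genes. With LEV, the median over the members was -0.24 on the infarcted and -0.33 on the non-infarcted side, against -0.10 and -0.06 over all genes. Without LEV it was -0.29 on each side, against -0.05 (infarcted) and -0.02 (non-infarcted) over all genes.

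Other genes of motile cilia, from lists chosen with earlier results of these data known, were read beside the members. Over all genes tested, 10.1% fell and 5.71% rose at 1 m against 7 d, the shares to set beside these lists and the markers below. Of 12 genes of the nexin-dynein complex and the central pair, 7 fell at 1 m against 7 d and 0 rose, with a median log2 difference of -0.48. Drc7, a subunit of that complex, was the lowest of the list by this measure and ranged from 1.87 to 14.3 CPM, and Spef2 and Hydin of the central pair fell by 0.73 and 0.70. Of 10 dynein chain and docking genes 3 fell (Wdr63, Ccdc114 and Dynlrb2; median -0.35), and of 8 assembly factors 2 fell (Dnaaf3 and Ccdc39; median -0.36). Among 7 tested regulators of multiciliated cells 2 fell, namely Rfx4 (-0.58) and Gmnc (-0.63), which commits cells to the multiciliated fate. Rfx2 and Rfx3 did not pass, with -0.06 and 0.16, and Mcidas was not tested at 0.0714 to 0.502 CPM. Intraflagellar transport and primary cilium genes, which cells without motile cilia also use, fell in 2 of 23, near the share over all genes. Their median was -0.21, with 18 of 23 below 0, against a median of -0.06 over all genes and -0.27 over the members.

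Markers of the cells that could carry these cilia moved with the members. Of 18 tested ependyma markers outside the gene families, 8 fell at 1 m against 7 d and 0 rose (median log2 difference -0.46), among them Mia, Pifo and Mlf1 at -0.82, -0.76 and -0.74. Tmem212 and Fam183b, markers of ependyma as well, did not pass at -0.07 and 0.03. The summed level of the ependyma list was 354 to 472 CPM at 1 m and 482 to 553 CPM at 7 d. Most of that sum came from Ak9, Vwa3a, Tm4sf1, Pltp, Nnat and S100b together, so it says little about the other markers of the list. All 19 tested choroid plexus genes fell, with a median of -2.03 and a summed level of 134 to 2075 CPM at 1 m and 3710 to 5509 CPM at 7 d. None of these markers was at 0 in all libraries. Of 6 astrocyte and neural stem genes 1 fell (Aqp4), and of 7 hippocampal neuron genes 1 fell (Zbtb20), with medians of -0.30 and -0.12. The part of tissue composition in the members' difference was not tested. Without the 2 libraries low in Ttr, 11 members fell and 1 rose, where 7.07% of all genes fell and 3.95% rose. Of these 11, 10 were among the 14 above and Rsph4a was added, while Foxj1, Dnah6, Rsph10b and Cfap52 were lost.

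The next comparison set the infarcted against the non-infarcted side. No member passed, and neither did any other gene: 0 of 46 members and 0% of all genes had an adjusted p under 0.05 (limma, condition as a block). At an unadjusted p under 0.05 there were 4 members, against 7.6% of all genes, edgeR called 0 genes, and DESeq2 called 14 genes and 0 members. The median log2 difference was 0.08 over the members and 0.02 over all genes, and 35 of 46 members were above 0. The infarcted side was higher in 5 of 5 pairs for 3 members (6.52%), against 5.26% of all genes. These were Foxj1 (0.28, SE 0.10, adjusted p 0.552), Cfap70 (0.34, SE 0.13, adjusted p 0.578) and Cfap410 (0.14, SE 0.06, adjusted p 0.627, limma). Cfap70 had 1.07 to 1.53 CPM on the infarcted side against 0.502 to 1.24 CPM on the non-infarcted side, and Cfap410 25.2 to 33.1 CPM on the infarcted side against 23.6 to 29.5 CPM on the non-infarcted side, so that the sides overlapped for both. No member was lower on the infarcted side in 5 of 5 pairs (2.71% of all genes).

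Pair by pair, members stood highest on the infarcted side at 2 m. There 39 of 46 were above 0, with a median of 0.27, where 54.8% of all genes were above 0. Cfap52 was an example, with 2.67 CPM on the infarcted side against 0.831 CPM on the non-infarcted side, and Cfap126 had 6.05 CPM on the infarcted side against 3.38 CPM on the non-infarcted side. In the other pairs the medians were 0.05 at 7 d (29 of 46 above 0, against 59.4% of all genes), -0.02 at 7 d with LEV (20, against 52.2%), 0.01 at 1 m (25, against 56.7%) and 0.05 at 1 m with LEV (29, against 48.7%). Ttr differed between sides by 0.12 at 7 d, 0.30 at 7 d with LEV, -5.20 at 1 m, 4.39 at 1 m with LEV and 1.68 at 2 m. This was far more than the members did at 1 m, 1 m with LEV and 2 m, but not at 7 d with or without LEV. At 1 m the members thus lay near 0 in both pairs while Ttr went in opposite directions. At 2 m markers of other cell types were higher on the infarcted side with the members: 16 of 18 ependyma markers (median 0.26), 19 of 19 choroid plexus genes (1.53) and 6 of 6 astrocyte and neural stem genes (0.20), and 2 of 7 hippocampal neuron genes (-0.07). Such shifts were not particular to 2 m. At 7 d, 7 d with LEV, 1 m and 1 m with LEV, 13, 15, 9 and 12 of 18 ependyma markers were higher on the infarcted side. In the same order it was 13, 16, 0 and 19 of 19 choroid plexus genes, 5, 6, 6 and 2 of 6 astrocyte and neural stem genes, and 3, 3, 3 and 1 of 7 neuron genes. The part of these markers in the members' difference was not tested.

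**Figure D3:**
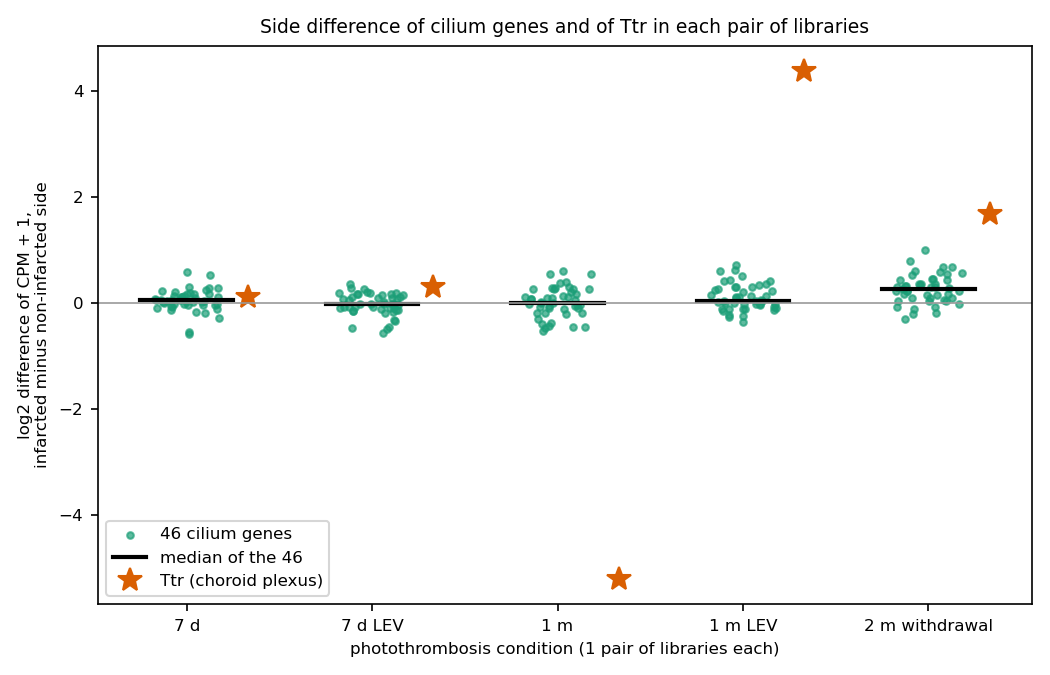
log2 difference of CPM + 1, infarcted minus non-infarcted side, in each of the 5 pairs of libraries for the 46 tested members (points, with their median as a bar) and for Ttr (star). The members stay within about 1 of 0 in all pairs, with the highest median (0.27) at 2 m, while Ttr ranges from -5.20 to 4.39.

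Whether the side difference itself changed with time or with LEV was tested on the 4 pairs of 7 d and 1 m. For both tests 0 of 46 members and 0% of all genes passed (limma), and at an unadjusted p under 0.05 there were 0 members for time and 1 for LEV, against 5.46% and 5.09% of all genes. The 1 member was Cfap54, a central apparatus gene, with 5.202 CPM on the infarcted side against 7.63 CPM on the non-infarcted side at 7 d with LEV, and 7.999 CPM on the infarcted side against 6.85 CPM on the non-infarcted side at 7 d without. At 1 m it had 4.15 CPM on the infarcted side against 5.14 CPM on the non-infarcted side with LEV, and 6.65 CPM on the infarcted side against 6.03 CPM on the non-infarcted side without (adjusted p 0.916, limma).

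Levetiracetam was set against no drug over 7 d and 1 m. No member passed (0 of 46, with 0.0187% of all genes), and none had an unadjusted p under 0.05, where 6.1% of all genes did (limma); edgeR and DESeq2 gave 0 members at either limit too. The median log2 difference was 0.01 over the members, and 24 of 46 were above 0. The largest differences were those of Rsph10b (0.32, SE 0.18) and Cfap54 (-0.29, SE 0.15). The same sign was seen in all 4 pairs of LEV and no LEV for 3 members. Cfap206 (0.19, SE 0.17) and Cfap298 (0.09, SE 0.12) were higher, and Cfap74 (-0.24, SE 0.14) was lower with LEV, none past the threshold. Cfap74 had 9.63 to 16.5 CPM with LEV and 12.4 to 18.1 CPM without. These ranges overlap, as those of every member did, where 1.73% of all genes had all libraries with LEV below and 1.51% above all those without.

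Comparisons with the naive library had 1 library a group and no test. At PT 1 m, 30 of 46 members were below naive on both sides, where 32.9% of all genes were, with medians of -0.24 on the infarcted and -0.21 on the non-infarcted side. With LEV at 1 m, 28 were below naive on both sides, where 46.1% of all genes were. At 7 d the medians were near 0, at 0.04 and 0.08 with LEV and 0.06 and 0.01 without on the infarcted and non-infarcted sides. On the scale of CPM + 1, Cfap161 at 2 m was the 1 member that differed from naive by at least 2-fold on both sides (1 of 46 members, 2.17%, against 0.504% of all genes), by log2 differences of 1.21 on the infarcted and 1.16 on the non-infarcted side. On that scale none was 2-fold lower at 2 m (1.63% of all genes), and at 7 d or 1 m, with or without LEV, 0 members were past 2-fold on both sides in either direction (1.64% of all genes). In plain CPM, 4 members were past 2-fold on both sides in at least 1 condition. Cfap161 was higher at 2 m (1.41% of all genes), at 7 d (0.747%) and at 7 d with LEV (0.666%). Tekt4 was lower at 1 m with LEV (0.592%) and without, and Cfap206 and Dnah11 were lower at 1 m without LEV (0.523%). At 2 m 0 members were lower in plain CPM (2.14% of all genes). The 2 m withdrawal libraries were above those of PT 1 m LEV on both sides for 32 of 46 members, where 50.0% of all genes were. On the scale of CPM + 1, Rsph1 was the 1 member past 2-fold higher on both sides (2.17%, against 1.2% of all genes), by log2 differences of 1.32 on the infarcted and 1.02 on the non-infarcted side, and 0 members were 2-fold lower (1.77% of all genes). In plain CPM 6 members were past 2-fold higher (13.0%, against 2.67% of all genes), namely Ak7, Rsph1, Dnah6, Cfap52, Cfap74 and Cfap161, and 0 were lower (2.24% of all genes). Time after PT and withdrawal cannot be told apart in this comparison.

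The relation of the members with Ttr across the 11 libraries was described next. Pearson's r of log2(CPM + 1) with Ttr had a median of 0.50 over the 46 members and 0.09 over all genes, as a description, since sides may share animals and all genes share the library. An r of at least 0.8 was found for 3 members (6.52%), against 0.747% of all genes: Cfap47 (0.93), Dnah6 (0.84) and Rsph10b (0.84). By Spearman's rho, 6 members reached 0.8 (13%, against 0.997% of all genes). In r, Foxj1 and Dnah11 followed with 0.78 and 0.77. The lowest were Cfap410 (-0.44), Rsph6a (-0.39), Rsph3a (-0.32), Cfap20 (-0.24) and Tekt5 (-0.07).

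Cfap47, a central apparatus gene that shows this best, stood at 3.14 CPM in the naive library. The 7 d libraries with LEV had 4.01 CPM (infarcted) and 3.11 CPM (non-infarcted), and those without had 4.11 CPM (infarcted) and 3.55 CPM (non-infarcted). Libraries of 1 m had 3.08 CPM (infarcted) and 2.06 CPM (non-infarcted) with LEV and 1.87 CPM (infarcted) and 2.94 CPM (non-infarcted) without, and withdrawal at 2 m left 3.71 CPM (infarcted) and 3.03 CPM (non-infarcted). The 2 libraries lowest in Cfap47 were the 2 lowest in Ttr, and the other 9 lay between 2.94 and 4.11 CPM. Because these 2 libraries stand apart as a cluster, r was also taken over the other 9, where Cfap47 had 0.65 and 6 members reached 0.8 (13% of the 46, against 0.878% of all genes), namely Cfap206 (0.93), Cfap126, Cfap69, Cfap70, Dnah11 and Rsph10b. The median over members was then 0.48. Within the 6 libraries of 7 d and 2 m the median was 0.20, with 5 members at 0.8 or above (10.9%, against 4.22% of all genes), and within the 5 libraries of naive and 1 m it was 0.41, with 7 members (15.2%, against 2.86%).

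For Foxj1 over the 9 libraries, r was 0.648 (two-sided exact permutation p 0.0388, 0.233 after adjustment over 6 such relations) and rho 0.433 (exact permutation p 0.25). The permutations swapped libraries freely, although sides may share animals, times differ in Ttr, and the 6 relations share libraries. On leaving out the 2 libraries then farthest from the median of Ttr, r was 0.0177, so the relation rests on those libraries. Ak7 gave an r of 0.486 over the 9 libraries (exact permutation p 0.178, adjusted 0.277), and over the same 7 libraries its r was 0.735 (exact permutation p 0.0986, adjusted 0.277). At 1 m Rsph1 stood at 8.27 to 9.13 CPM while Ttr ranged from 36.2 to 1709 CPM over the same 4 libraries. On the non-infarcted side at 2 m, with Ttr at 1211 CPM, Rsph1 had 17.8 CPM. Over all 11 libraries Rsph1 ranged from 8.27 to 24.3 CPM. Its highest value, on the infarcted side at 2 m, came with Ttr at 3872 CPM. The 4 libraries at 7 d, with Ttr at 3031 to 4652 CPM, had 16.7 to 19.8 CPM of Rsph1. The relation of Rsph1 with Ttr was not tested.

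**Figure D4:**
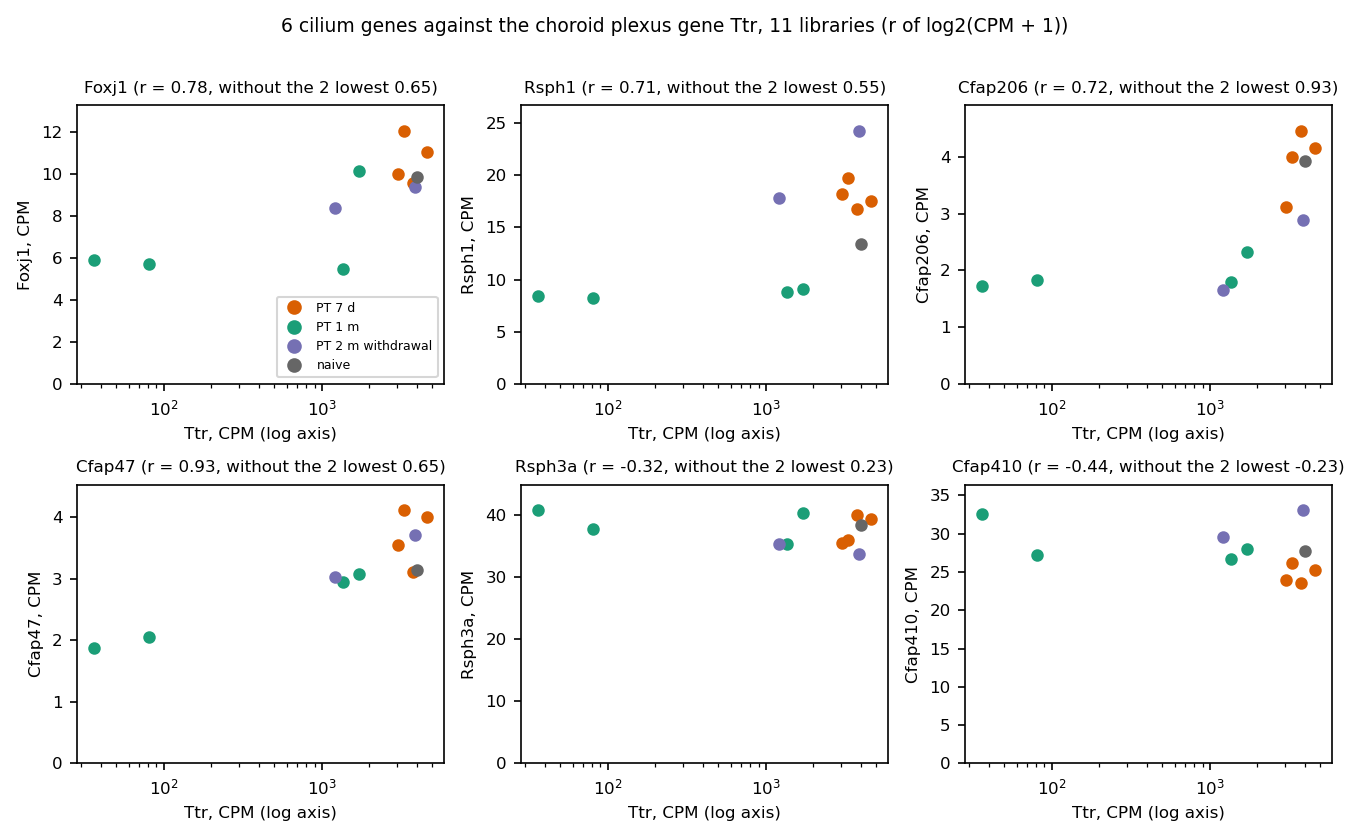
CPM of 6 members against Ttr CPM (log axis) in the 11 libraries, coloured by time after PT, with Pearson's r over 11 libraries and without the 2 lowest in Ttr. Cfap47 is lowest where Ttr is lowest. Foxj1 is low there too, but its lowest value (5.45 CPM) is on the non-infarcted side of PT 1 m, with Ttr at 1372 CPM. Rsph1 is low in all 4 libraries at 1 m, and Rsph3a and Cfap410 are not lower where Ttr is lowest.

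The genes outside the families whose levels lay closest to Foxj1 over the 11 libraries were Ucp2 (r 0.91), Gm34150, Sgk3, Spa17, Dynlrb2, Prr32, Wdr63 and Mia (0.88 to 0.89), with Gm13161 and Vmn2r-ps19, which had the same reads in every library. Among the members, Cfap77 (0.86) and Cfap47 (0.84) reached 0.8 with Foxj1 (4.44% of the other 45, against 0.592% of all genes).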

How the data were processed

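CAGE libraries of whole hippocampus (11 samples in 11 groups of 1) were read from 1 deposited table of CPM per gene. The authors used HISAT2 2.0.5, BWA 0.7.17 and DESeq2 1.20.0 with GRCm38, per the submitters' processing notes; what each did, the annotation and the counting rule are not stated there. The deposited CPM values were whole numbers of reads (tolerance 0.0001) for 100% of values, which gave the library totals. Coordinates are GENCODE M21 (GRCm38), where 22335 of 22377 identifiers matched.

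Values were used as log2(CPM + 1), for 16057 genes with a mean of at least 1 CPM. Tests used limma 3.58.1 (eBayes with a trend) in R 4.3.3 across all tested genes, with Benjamini-Hochberg adjustment at 0.05, and were tested on simulated data. For the side, the 10 PT libraries were fitted with a block for each condition (4 residual degrees of freedom). LEV and time were fitted on 4 condition means with sides averaged (1 residual, 21.6 prior degrees of freedom), and side by time and by LEV on 4 pair differences (2). On the recovered reads, edgeR 4.0.16 called 494 genes higher and 413 lower at 1 m and DESeq2 1.42.0 called 528 and 290. Correlations used Pearson's r and Spearman's rho, with exact permutation for Foxj1 and Ak7. The other alternatives were TMM scaling, pseudocounts of 0.5 and 5, plain CPM for folds, no filter, no trend, no block, 8 libraries as independent and leaving out libraries.

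Named genes were Foxj1, Ak7, the 4 highest means per family, up to 5 per direction in each contrast with the same sign in every pair, the extremes of r and of range, and every member past 2-fold against naive or for withdrawal; other members that passed or belong to a described structure were named after their values were seen. The members, lists and rules were chosen with earlier results of these data known. The sequences are RefSeq promoters.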

Additional observations from a re-analysis of the deposited data

Results flagged for a closer look

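For 8 of 46 tested members (17.4%) the change with LEV went one way on both sides at 7 d and the other way on both sides at 1 m, as it did for 16.4% of all genes; the difference was not tested. Of these, 4 had a higher LEV change at 1 m than at 7 d, by 0.46 for Foxj1, 0.42 for Cfap221, 0.68 for Cfap77 and 0.47 for Cfap57 on the log2 scale. The other 4 had a lower one, by -0.27 for Cfap44, -0.31 for Rsph9, -0.28 for Cfap69 and -0.50 for Cfap97d2. For Foxj1 the LEV change at 1 m was 0.69 on the infarcted and 0.06 on the non-infarcted side, and at 7 d it was -0.12 and -0.06 on those sides.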

How the results depend on the processing

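The counts of 0 members for the side, LEV and both tests of the side difference held in every alternative run, without the condition block included. Condition pairs the sides in the fit itself, and the labels give no replicate numbers to pair samples by. Of 15 members called for 1 m against 7 d, 2 were called with TMM scaling (Cfap126 and Rsph1) or DESeq2, 4 with edgeR and 0 without the filter on low values. Without that filter, 5 genes rose and 19 fell over 22268 genes. Leaving out 1 library gave 7 to 15 called members. There were 7 without PT 1 m on the infarcted side, where 376 genes rose and 685 fell over all genes. Without PT 7 d LEV on the non-infarcted side there were 7 too, where 479 rose and 801 fell. The 15 came without PT 1 m LEV on the infarcted side, where Ak7 and Rsph6a were lost and Cfap47 and Cfap77 were added. The direction of each called member held in every alternative, and the cause of the lost calls was not tested. Against naive, 1 member passed 2-fold, 3 with a pseudocount of 0.5, 0 with 5, 4 in plain CPM and 6 at 1.5-fold. For withdrawal, 1 passed, 2 with a pseudocount of 0.5, 0 with 5, 0 with TMM, 6 in plain CPM and 5 at 1.5-fold. Plain CPM, with a value of 0 set to 3 reads, was added after seeing the data. The 3 members at an r of 0.8 with Ttr became 6 on linear CPM, 6 by Spearman's rho, 6 without the 2 libraries lowest in Ttr, 5 and 7 within the 6 and the 5 libraries, 11 over 6 condition means, and 2 to 6 on leaving out 1 library (6 without PT 1 m on the non-infarcted side). Side differences by time or LEV without both 1 m pairs were not run, since no contrast for time and no residual degrees of freedom for LEV are left. Depth limits members near 1 CPM, where 1 library holds few reads.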
